A study of Rattus norvegicus with 9 samples.

Results

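Osteoblasts signal to osteoclasts and to other myeloid cells through a small set of secreted and membrane-bound cytokines. The 6 genes described here are Tnfrsf11b, Tnfsf11, Csf1, Csf2, Csf3 and Il34, which were picked by gene symbol. They are 6 of the 19085 genes in the table, of which 13256 passed a filter on low counts. Of the 6 genes, 5 passed that filter and Tnfsf11 did not.

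RANKL, the product of Tnfsf11, binds RANK on osteoclast precursors and drives their differentiation, and OPG, the product of Tnfrsf11b, is a soluble decoy receptor that binds RANKL and keeps it from RANK. CSF-1 and IL-34, the products of Csf1 and Il34, are both ligands of the receptor CSF1R, and CSF-1 keeps osteoclast precursors and macrophages alive. GM-CSF (Csf2) and G-CSF (Csf3) act on granulocytes, macrophages and their precursors, and stromal and bone-forming cells can make both. The balance of OPG to RANKL is a common measure of how far osteoblasts favour or restrain osteoclast formation.

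Messenger RNA was sequenced from primary osteoblasts of the skull cap (calvaria) of male Sprague-Dawley rats aged 24 hours, with 3 libraries in each of 3 groups. Every group was kept for 7 days in osteogenic induction medium with dexamethasone, ascorbic acid and β-glycerophosphate, so the control group carried these agents too. The control group had the induction medium alone, the thrombin group also had 20 U/mL of this coagulation protease, and the PD03 group had the same thrombin together with PD0325901, an inhibitor of the kinase MEK, at 0.1 μM. One protocol in the sample labels gives that concentration in mM, the labels name the tissue as knee, and the label of the PD03 group does not mention the thrombin, which the design text does. No library had PD03 without thrombin, so the effect of PD03 alone was not measured. The methods call the 3 samples of a group independent, but neither they nor the labels say that these came from separate cultures or animals, so p-values measure the spread between these samples, which may be technical. In bulk samples, fewer cells of a type and less RNA per cell cannot be told apart.

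Total counts lay between 15447832 and 19841468 per library. The coefficient of variation beyond counting noise, estimated by edgeR in common for all genes, was 4.28%. Counting noise adds to it, so genes with few reads spread more. Of the osteoblast markers listed, Col1a1 lay at 47414 ± 2730 CPM in control, 42828 ± 1702 in thrombin and 72088 ± 988 in PD03 (SD, n = 3). CPM are read counts scaled to the library size by the TMM method of edgeR. Alpl and Sp7 of the same list were low, at means of 1.67 and 4.25 CPM in control. The mature markers were close to absent, since Bglap, which encodes osteocalcin, had a mean of 0.141 CPM in control and Ibsp, bone sialoprotein, was at 0 in the thrombin libraries. The 7 monocyte and macrophage markers summed to between 1.64 and 3.37 CPM in every library, and no marker of the list was at 0 throughout a group. Of the 7 osteoclast markers 6 were listed and their sum ran from 98.9 to 178 CPM, nearly all of it Ctsk and Acp5, while Dcstamp and Atp6v0d2 were both at 0 in the thrombin libraries. The T cell markers Cd3d and Cd8a were at 0 in control and PD03 and summed to at most 0.408 CPM in thrombin.

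The genes fell into 3 patterns. Tnfrsf11b and Il34 fell under thrombin and were higher again with PD03, Csf2 and Csf3 fell far below both other groups with PD03, and Csf1 moved little. A gene was called where the quasi-likelihood test of edgeR gave an adjusted p-value under 0.05 and the log2 fold change passed 0.58 in size. For thrombin against control, 0 of the 5 tested genes were called higher, against 2.62% of all tested genes, and 2 were called lower, against 5.44%. For PD03 against thrombin, 2 were called higher, against 9.61% of all tested genes, and 2 lower, against 6.31%. For PD03 against control, 0 were called higher, against 4.90%, and 2 lower, against 4.07%. The comparisons share libraries, so they are not independent of each other. Csf2 and Il34, both among the called genes, passed the filter on low counts only through the groups in which they were higher.

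**Figure D1:**
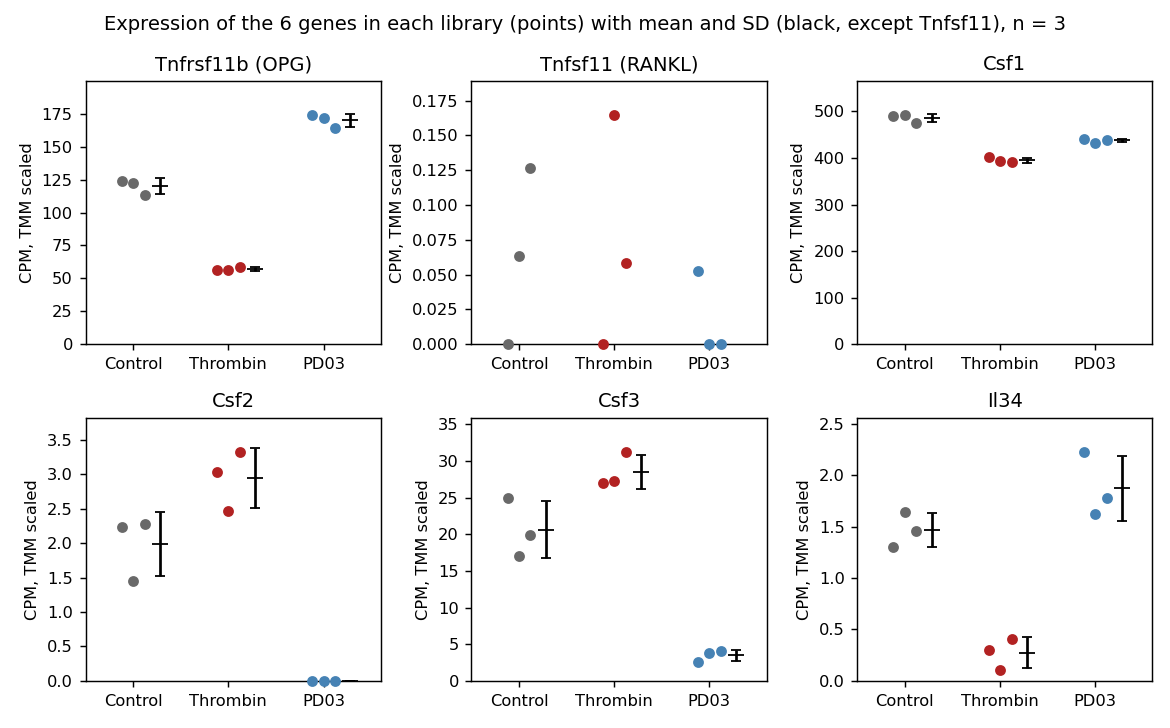
Each panel plots 1 gene, with a point for each library in CPM on a linear axis from 0, grouped as Control, Thrombin and PD03, and with the group mean and SD in black for all genes but Tnfsf11, which rests on 8 reads. Tnfrsf11b sat between 56.2 and 58.9 CPM in the thrombin libraries and at 113 or above in every other library, and Csf2 was at 0 in the 3 PD03 libraries.

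Without a fold threshold, 4 of the 5 genes passed the adjusted p-value for thrombin against control, where 28.7% of all tested genes did. The same held for 5 genes for PD03 against thrombin (49.8% of all genes) and for 4 for PD03 against control (39.9%). The libraries of the compared groups did not overlap for 5 of 5 genes in thrombin against control, for 5 of 5 in PD03 against thrombin and for 4 of 5 in PD03 against control. For all tested genes the corresponding shares were 40.3%, 55.5% and 47.8%, so a gap between the libraries was common in this series. The median log2 fold change of all tested genes was -0.0060, 0.011 and -0.0039 in the same order.

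OPG was the second most abundant of these transcripts per length in control. Tnfrsf11b (ENSRNOG00000008336) was at 124, 123 and 113 CPM in the control libraries, at 56.7, 56.2 and 58.9 in the thrombin libraries, and at 174, 172 and 164 in the PD03 libraries. All thrombin libraries were below all control libraries, and all PD03 libraries were above both. The group means were 120 ± 5.98 CPM in control, 57.3 ± 1.42 in thrombin and 170 ± 5.29 in PD03 (SD, n = 3). The level was 2.10-fold lower in thrombin than in control, a log2 fold change of -1.07 (SE 0.05, 95% interval -1.17 to -0.97, adjusted p = 1.4e-21 by edgeR). With PD03 added it was 2.97-fold higher than with thrombin, a log2 fold change of 1.57 (SE 0.05, 95% interval 1.47 to 1.67, adjusted p = 3.5e-28). Against control, PD03 libraries were 1.42-fold higher (log2 fold change 0.50, SE 0.05, adjusted p = 2.5e-12), which passed the test but not the fold threshold. By quantitative PCR, the study reports that thrombin inhibited OPG and that PD03 reversed this. It reports the same of Col1a1, Runx2, Osterix (Sp7) and OCN (Bglap).

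Marker genes of the cells also differed between the groups, some in the direction of Tnfrsf11b and some not. Of the 6 osteoblast markers 4 were tested, and 2 were called higher and 1 lower for PD03 against thrombin, against 9.61% and 6.31% of all tested genes. Alpl, the alkaline phosphatase of osteoblasts, was at 1.67 ± 0.815 CPM in control, 0.345 ± 0.0145 in thrombin and 3.10 ± 0.635 in PD03 (SD, n = 3), and was called lower in thrombin than in control and higher in PD03 than in thrombin. Runx2, a transcription factor of the osteoblast lineage, went the other way at 42.8 ± 2.38, 51.1 ± 2.37 and 32.1 ± 2.70 CPM, and was called lower in PD03 than in thrombin (log2 fold change -0.67, SE 0.07, adjusted p = 2.5e-11 by edgeR). Sp7, another such factor, stood at 4.25, 6.20 and 4.94 CPM and was not called. The thrombin means of Runx2 and Sp7 thus lay above control, whereas the study reports inhibition of both. Bglap had 7, 8 and 7 reads over the control, thrombin and PD03 groups and was not tested. The summed osteoblast markers, almost all Col1a1, ran from 44323 to 49290 CPM in control, from 41135 to 44537 in thrombin and from 71156 to 73130 in PD03. The 4 adipocyte markers, chiefly Lpl, ran from 201 to 212 CPM, from 97.6 to 103 and from 154 to 165. The osteoclast markers stood at 132 to 143 CPM in control, 98.9 to 107 in thrombin and 169 to 178 in PD03. The 5 osteocyte markers, chiefly Fgf23, summed to 34.6 to 43.1 CPM in control, 3.89 to 5.88 in thrombin and 5.61 to 7.71 in PD03. The 3 listed endothelial markers, chiefly Tek, summed to 6.69 to 7.76, 6.30 to 8.50 and 11.1 to 12.6 in the same order. The part of these markers in the differences of Tnfrsf11b and the other members was not tested.

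RANKL was hardly detected. Tnfsf11 (ENSRNOG00000071047) had 0, 1 and 2 reads in the control libraries, 0, 3 and 1 in the thrombin libraries, and 1, 0 and 0 in the PD03 libraries. The groups overlapped, and no library had more than 3 reads. Over the 3 libraries of a group this came to 0.0599 CPM in control (exact 95% Poisson interval 0.0124 to 0.175), 0.0766 in thrombin (0.0209 to 0.196) and 0.0197 in PD03 (0.000500 to 0.110). These intervals cover counting error only. A difference in Tnfsf11 between the groups was not detectable at this depth, and no fold change was computed.

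The OPG to RANKL balance could therefore be given only as pooled read counts. Control had 6022 Tnfrsf11b reads to 3 Tnfsf11 reads, thrombin 2991 to 4 and PD03 8620 to 1. The lengths behind the FPKM values were 3054 bases for Tnfrsf11b and 2344 for Tnfsf11, and per length the ratio of OPG to RANKL was 1541 in control (exact 95% binomial interval 527 to 7473). It was 574 in thrombin (224 to 2108) and 6616 in PD03 (1187 to 261348). Each interval overlaps the others, and over the 9 libraries together the ratio was 1692 (858 to 3919). OPG transcripts thus far outnumbered RANKL transcripts in the pooled reads of every group. The intervals cover counting error only and leave out the spread between libraries. The order of the groups rests on 8 Tnfsf11 reads. In thrombin, 3 of the 4 reads came from replicate 2, without which the ratio was 1508. Without replicate 3 the control ratio was 3246 and without replicate 1 it was 956, and without PD03 replicate 1 that group had no Tnfsf11 read. No test of the balance between groups was run, because Tnfsf11 did not pass 3 reads in both groups of any comparison.

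Of the genes that pair with this axis, Tnfrsf11a, which encodes RANK, had 3, 0 and 3 reads over the control, thrombin and PD03 groups and was not tested. Lgr4, another receptor for RANKL, was at 52.9 CPM in control, 50.2 in thrombin and 54.2 in PD03 and was not called in any comparison. Sdc1, a heparan sulfate proteoglycan of the cell surface, was at 214, 240 and 230 CPM and was not called.

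CSF-1 was the most abundant of the 6 transcripts per length in every group. Csf1 (ENSRNOG00000018659) was at 490, 492 and 476 CPM in the control libraries, at 402, 393 and 392 in the thrombin libraries, and at 440, 433 and 440 in the PD03 libraries. The 3 groups did not overlap, with control highest and thrombin lowest. The means were 486 ± 8.88, 396 ± 5.52 and 438 ± 3.99 CPM (SD, n = 3). The log2 fold change was -0.30 for thrombin against control (SE 0.03, adjusted p = 1.9e-09 by edgeR), -0.15 for PD03 against control (SE 0.03, adjusted p = 3.4e-04) and 0.15 for PD03 against thrombin (SE 0.03, adjusted p = 3.6e-04). None passed the fold threshold. The difference between PD03 and thrombin did not hold where libraries were scaled by their totals. It was 0.05 (adjusted p = 0.24) by library totals and 0.05 (adjusted p = 0.20) by limma on FPKM values with 1 added, which also use those totals. With the TMM scaling and each library left out in turn, it stayed between 0.13 and 0.15.

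IL-34, the other ligand of CSF1R, was a low transcript with a large relative change. Il34 (ENSRNOG00000017602) had 24, 26 and 23 reads in the control libraries, 5, 2 and 7 in the thrombin libraries, and 42, 25 and 29 in the PD03 libraries. In CPM this was 1.30, 1.64 and 1.45, then 0.297, 0.110 and 0.408, then 2.22, 1.62 and 1.77. The thrombin libraries lay below all others, and control and PD03 overlapped. Il34 passed the filter on low counts through the control and PD03 groups, and its thrombin level rests on 14 reads. Thrombin was 5.32-fold below control, a log2 fold change of -2.41 (SE 0.43, 95% interval -3.29 to -1.54, adjusted p = 2.3e-05 by edgeR). PD03 was 6.86-fold above thrombin, a log2 fold change of 2.78 (SE 0.42, 95% interval 1.94 to 3.62, adjusted p = 3.2e-07). The difference between PD03 and control did not pass the test (log2 fold change 0.37, 95% interval -0.25 to 0.99, adjusted p = 0.37). A picture in the study labels Il34 and, as far as its letters can be read, Tnfrsf11b among cytokine genes picked on these samples. The text of the study does not name Il34 but does report OPG. The direction of these 2 genes here is therefore not independent evidence. On the FPKM values with 1 added, which shrink low genes, the 2 called changes were -0.72 and 0.83 and were still called.

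The receptor of both ligands was near its detection limit. Csf1r, the receptor of CSF-1 and IL-34 and a marker of myeloid cells, had 22, 39 and 62 reads over the control, thrombin and PD03 groups, at means of 0.440, 0.746 and 1.23 CPM. It was called higher in PD03 than in control (log2 fold change 1.47, SE 0.42, adjusted p = 0.0045 by edgeR). The summed macrophage markers, of which it is 1, ran from 1.64 to 2.39 CPM in control, from 1.72 to 2.39 in thrombin and from 2.54 to 3.37 in PD03, and their part in the Csf1r difference was not tested. Ptprz1, a receptor phosphatase that binds IL-34, was at 7.52 CPM in control, 15.7 in thrombin and 6.28 in PD03. Its log2 fold change was 1.06 for thrombin against control (SE 0.12, adjusted p = 2.0e-09) and -1.33 for PD03 against thrombin (SE 0.13, adjusted p = 4.8e-12). Ptprz1 was thus highest in the group in which Il34 was lowest.

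**Figure D2:**
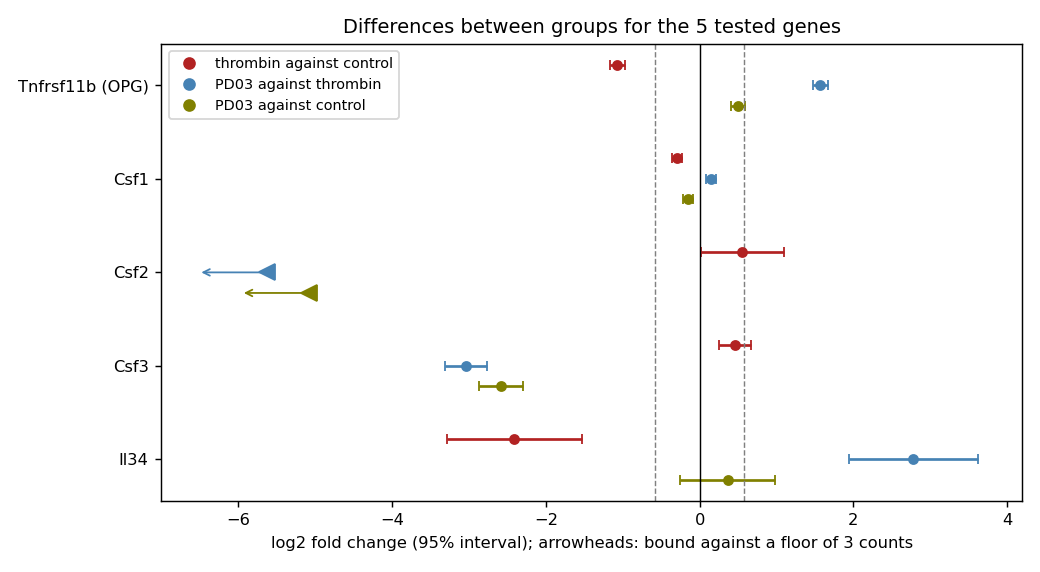
The horizontal axis is the log2 fold change, with points for the fitted value and bars for its 95% interval, in red for thrombin against control, in blue for PD03 against thrombin, in olive for PD03 against control, and with dashed lines at 0.58 in either direction. Tnfrsf11b and Il34 lie on opposite sides of 0 for the red and blue points, and the arrowheads for Csf2 mark a bound and not a fitted value, since its PD03 libraries had no read.

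No Csf2 read, the transcript of GM-CSF, was found with PD03. Csf2 (ENSRNOG00000026805) had 41, 23 and 36 reads in the control libraries, 51, 45 and 57 in the thrombin libraries, and 0 in each of the 3 PD03 libraries. In CPM the control libraries were at 2.23, 1.45 and 2.27 and the thrombin libraries at 3.03, 2.47 and 3.32. The PD03 libraries lay below every other library, and the gene passed the filter on low counts through the other groups. Set against a floor of 3 reads over the PD03 group (0.0592 CPM), Csf2 was at least 49.5-fold lower in PD03 than in thrombin and at least 33.7-fold lower than in control. The adjusted p-values by edgeR were 7.3e-13 and 8.4e-11. These bounds scale with the depth behind the zeros, and without PD03 replicate 1 they were 31.0 and 21.2. They hold for that floor and are not confidence limits, since the exact 95% Poisson interval for the PD03 group reached 0.0728 CPM. Csf2 was higher in each thrombin library than in any control library, but the difference of 0.56 on the log2 scale (SE 0.27, 95% interval 0.01 to 1.10) did not pass the test after adjustment (adjusted p = 0.12).

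G-CSF fell with PD03 but remained detected. Csf3 (ENSRNOG00000008525) was at 24.9, 17.1 and 19.9 CPM in the control libraries, at 27.0, 27.3 and 31.2 in the thrombin libraries, and at 2.65, 3.82 and 4.04 in the PD03 libraries. All PD03 libraries lay below all others, and the thrombin libraries lay above the control libraries. The means were 20.6 ± 3.94, 28.5 ± 2.36 and 3.50 ± 0.748 CPM (SD, n = 3). PD03 was 8.22-fold below thrombin, a log2 fold change of -3.04 (SE 0.14, 95% interval -3.31 to -2.76, adjusted p = 2.5e-22 by edgeR), and only 0.181% of the tested genes had a lower log2 fold change in that comparison. It was 5.98-fold below control, a log2 fold change of -2.58 (SE 0.14, 95% interval -2.87 to -2.30, adjusted p = 4.3e-19). For thrombin against control the log2 fold change was 0.46 (SE 0.10, adjusted p = 5.1e-04), short of the fold threshold. That call depended on 1 library, since without control replicate 1 the value was 0.62 (adjusted p = 1.8e-05) and passed the threshold.

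The receptors of these factors did not follow a single course. Csf2rb, the signalling chain of the GM-CSF receptor, which it shares with the receptors of IL-3 and IL-5, was at 25.0 ± 1.75 CPM in control, 1.75 ± 0.289 in thrombin and 2.56 ± 0.0942 in PD03 (SD, n = 3). It was 14.2-fold lower in thrombin than in control, a log2 fold change of -3.83 (SE 0.14, adjusted p = 1.2e-24 by edgeR), and was not called between PD03 and thrombin (0.54, SE 0.20). Csf2ra, the chain that binds GM-CSF itself, stood at 17.5, 17.5 and 20.0 CPM and was not called. Csf3r, the G-CSF receptor, had 2 reads in control and none in the other groups. Of the 9 receptors and binding partners listed, 6 were tested. For thrombin against control 1 was called higher and 1 lower, for PD03 against thrombin 0 and 1, and for PD03 against control 1 and 1, with median log2 fold changes of 0.08, 0.15 and 0.07. The shares of all tested genes in that order were 2.62%, 9.61% and 4.90% called higher and 5.44%, 6.31% and 4.07% lower.

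The promoter of Csf2 is shown because this is the member whose reads disappeared with PD03, and the sequence lets a reader see the elements next to its start. Of the 6 genes, 2 matched a promoter of the RefSeq table (assembly GRCr8), Csf2 and Tnfsf11. The 250 bases before the start of Csf2 lie at chr10:38889674-38889923 on the minus strand, and capitals mark a match to the STAT motif TTCNNNGAA (bases -228 to -220 from the start) and a match to the CK-1 element, known by name from the promoters of haematopoietic growth factors (bases -139 to -130).

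Csf2 promoter: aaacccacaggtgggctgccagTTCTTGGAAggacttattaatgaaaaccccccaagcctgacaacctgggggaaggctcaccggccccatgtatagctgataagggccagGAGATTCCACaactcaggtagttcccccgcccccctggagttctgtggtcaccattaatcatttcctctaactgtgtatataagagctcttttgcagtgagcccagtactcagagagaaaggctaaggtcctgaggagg

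The search covered both strands of this window. Exact matches to the AP-1 motif (TGANTCA), the CRE (TGACGTCA), an ETS motif (CCGGAAGT) and the NF-κB motif (by name) were not found in it. Variant sites that differ from these patterns by a base were not searched for, so the window may still hold elements of these kinds. Of the 33469 promoters in the table, 7.67% held the STAT motif, 0.756% CK-1, 6.34% AP-1, 1.59% the CRE, 3.10% the ETS motif and 6.33% NF-κB. The letters describe this window and do not show that a factor bound there. The same window of Tnfsf11 held no exact match to the 6 motifs.

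Neighbouring genes were checked in the RefSeq gene order. Of 24 neighbours of the 6 genes, 14 were tested and 1, Mal2, the second gene along from Tnfrsf11b, was called in any comparison, at 1 to 21 reads per library. Il3, the cytokine gene beside Csf2, had at most 2 reads in any library. The tested neighbours of Csf2, Pdlim4 and P4ha2, and those of Csf3, Psmd3, Med24 and Thra, were not called.

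Levels of different genes can be set side by side only per length, on the FPKM scale, and their order changed between the groups. In control it ran Csf1 (110 FPKM), Tnfrsf11b (40.5), Csf3 (16.2), Csf2 (2.87), Il34 (0.914) and Tnfsf11 (0.0276), with no overlap between neighbours in the order. In thrombin Csf3 (22.0 FPKM) lay above Tnfrsf11b (19.1), without overlap of the libraries, and Il34 (0.167) overlapped Tnfsf11 (0.0323). In PD03 Tnfrsf11b (52.9 FPKM) was again second to Csf1 (91.1), followed by Csf3 (2.53) and Il34 (1.08), with Tnfsf11 (0.00717) and Csf2 (0) last and not separate.

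**Figure D3:**
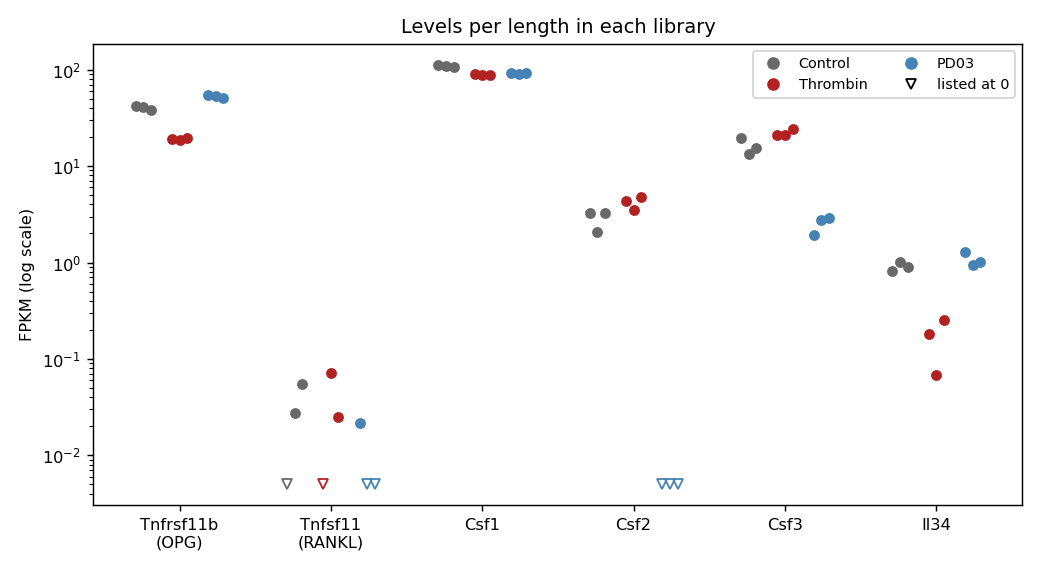
The vertical axis is FPKM on a log scale, with a point for each library of Control (grey), Thrombin (red) and PD03 (blue), and open triangles at the bottom for libraries listed at 0. Csf1 is the highest gene in each group, and Csf3 exceeds Tnfrsf11b in thrombin alone.

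Within a library the ratio of 2 genes does not depend on how libraries are scaled. The Tnfrsf11b level was 37.0% ± 1.21 of the Csf1 level in control, 21.7% ± 0.728 in thrombin and 58.1% ± 2.02 in PD03 (FPKM, SD, n = 3), with no overlap between groups. The Csf3 level was 14.7% ± 2.78, 25.0% ± 2.32 and 2.78% ± 0.602 of the Csf1 level in the same order, again without overlap. Il34 stood at 0.834% ± 0.0938, 0.190% ± 0.106 and 1.18% ± 0.190 of Csf1. Of the transcripts of the 2 CSF1R ligands, Csf1 thus remained by far the more abundant, and the proteins were not measured. Csf2 was 17.7% ± 2.88 of Csf3 in control and 19.0% ± 2.10 in thrombin, and these ranges overlapped.

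Genes with the most similar pattern were found by the Pearson correlation of log2 CPM over the 9 libraries, among 11922 genes. For Csf1 they were Dab2, Cdo1 and Selenbp1, for Csf2 Pabpc1, Ncapd2 and Anxa2, for Csf3 Cemip2, LOC108348048 and Ccnd1, and for Il34 Timp4, Il17re and Arnt2. The highest coefficient was 0.995 for Dab2 with Csf1, 0.998 for Pabpc1 with Csf2, 0.997 for Cemip2 with Csf3 and 0.991 for Timp4 with Il34. Such values were common, since between 195 (Csf1) and 965 (Csf2) genes exceeded 0.9. The 9 points form 3 groups, so the coefficient mostly describes the pattern over the groups.

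Signals known to raise RANKL in osteoblasts changed in both directions. The list comprises parathyroid hormone, vitamin D, prostaglandin E2, TNF and cytokines of the IL-6 and IL-1 families, through their genes, enzymes or receptors, and 15 of the 19 genes listed were tested. For thrombin against control, 4 were called higher and 2 lower, against 2.62% and 5.44% of all tested genes, with a median log2 fold change of -0.16. Lif, leukaemia inhibitory factor, was at 39.0 CPM in control and 113 in thrombin (log2 fold change 1.54, SE 0.07, adjusted p = 1.1e-22 by edgeR), and Il1b, interleukin-1β, was at 0.656 and 1.96 CPM (1.57, SE 0.38, adjusted p = 0.0012). The receptors Lifr (log2 fold change -1.13, SE 0.08) and Osmr (-0.67, SE 0.04) fell.

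For PD03 against thrombin, 1 of the 15 was called higher and 4 lower, against 9.61% and 6.31% of all tested genes. The median log2 fold change was -0.02. Lif fell to 8.49 CPM (log2 fold change -3.74, SE 0.08, adjusted p = 2.8e-33), and Ptgs2, the inducible cyclooxygenase of prostaglandin synthesis, fell from 251 to 22.1 CPM (-3.51, SE 0.09, adjusted p = 6.7e-31). Pth1r, the parathyroid hormone receptor, rose from 20.3 to 34.7 CPM (0.77, SE 0.08, adjusted p = 1.5e-10). For PD03 against control, 1 was called higher and 6 lower, against 4.90% and 4.07% of all tested genes, with a median of -0.37. The study picked several of these cytokines on the same samples, so their direction is not independent evidence.

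**Figure D4:**
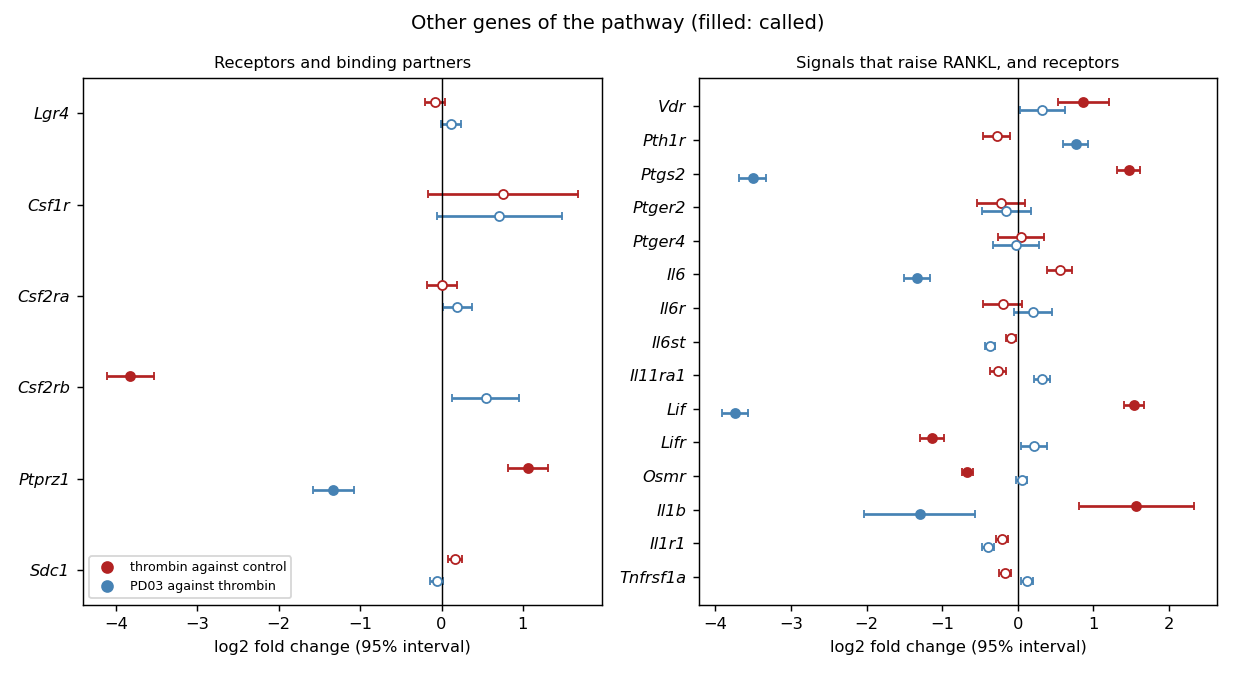
Each row is a gene, with the log2 fold change and its 95% interval for thrombin against control (red) and PD03 against thrombin (blue), filled where called. The left panel holds the 6 tested receptors and binding partners, in which Csf2rb lies farthest from 0, and the right panel the 15 tested signals that raise RANKL, in which Lif and Ptgs2 lie farthest to the left for PD03 against thrombin.

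Of 4 proteases that shed RANKL or CSF-1 from the cell surface, 3 were tested and 1 was called, Mmp14, which was higher in PD03 than in control (log2 fold change 0.69, SE 0.03, adjusted p = 2.0e-20 by edgeR). Mmp14 was picked here after its values were seen. The medians of the 3 proteases were -0.04, 0.06 and -0.08 for the comparisons in the order above.

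Other signals from osteoblasts to osteoclasts and myeloid cells comprised 20 listed genes, of which 16 were tested. For thrombin against control 4 were called higher and 6 lower, with a median of -0.0023. Spp1, osteopontin, rose from 63.6 to 185 CPM (log2 fold change 1.54, SE 0.05) and Wnt5a from 92.8 to 227 CPM (1.29, SE 0.04). Tnfsf13b, the B cell factor BAFF, fell from 1.17 to 0.326 CPM (-1.81, SE 0.45) and Slit3, a guidance ligand, from 807 to 371 CPM (-1.12, SE 0.04). For PD03 against thrombin 3 were called higher and 5 lower, with a median of -0.05. Cthrc1 (1.43, SE 0.04) and the Wnt inhibitor Sfrp1 (1.09, SE 0.03) rose, and Il33 (-2.05, SE 0.04) and Spp1 (-1.80, SE 0.05) fell. For PD03 against control 1 was called higher and 3 lower, with a median of -0.26. The shares of all tested genes over the 3 comparisons were 2.62%, 9.61% and 4.90% called higher and 5.44%, 6.31% and 4.07% lower. This list was chosen with earlier results of these data known.

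Genes downstream of MEK were listed with earlier results of these data known, so they are not an independent check of the inhibitor. Of the 9 tested, 7 were called lower and 0 higher for PD03 against thrombin, where 6.31% and 9.61% of all tested genes were. The median log2 fold change was -1.18. The counts were the same for PD03 against control, at a median of -1.43, where 4.07% of all tested genes were called lower. Dusp4 went the other way there, short of the fold threshold (0.56, SE 0.14, adjusted p = 8.1e-04 by edgeR). Phlda1 (-2.70, SE 0.08) and Etv4 (-2.62, SE 0.15) fell most against thrombin. For thrombin against control 2 were called higher, Phlda1 (0.98, SE 0.07) and Dusp4 (0.94, SE 0.13), and 0 lower, at a median of 0.02.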

How the data were processed

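PolyA RNA of 9 libraries was sequenced by the authors. Their paper names fastp, HISAT2, the Rnor_6.0 genome, featureCounts and DESeq2, while the submitters' processing notes list HISAT2, HTSeq 0.13.5 and mRatBN7.2, and no source used here gives the annotation release or the strandedness. Without known strand, reads of overlapping antisense genes cannot be told apart. The deposited raw counts per gene were used for the tests. The deposited FPKM values, which equal the count divided by gene length and library total, were used for levels between genes and as an alternative. Samples were grouped by their titles.

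The 6 genes, the gene lists and the tests were chosen with earlier results of these data known. Genes were filtered with filterByExpr (minimum count 10), scaled by TMM and fitted in 1 model over 9 libraries with edgeR 4.0.16 (glmQLFit and glmQLFTest, R 4.3.3). Benjamini-Hochberg adjustment ran over 13256 genes, and calls needed an adjusted p-value under 0.05 and a log2 fold change above 0.58 in size. Standard errors came from the F statistic. The procedure was tested on simulated data. All 6 genes were named. From every other list, up to 2 called genes with the largest rise and up to 2 with the largest fall were named in thrombin against control and in PD03 against thrombin, and the 3 genes most correlated with each member were taken from those with a mean of at least 1 CPM, and those of Tnfrsf11b are not reported here. Lgr4, Sdc1, Csf1r, Csf2ra and Csf3r are given as receptors, and single marker genes and Mal2 beside the results, after their values were seen. Intervals at 95% of pooled counts are exact and cover counting error only, and the floor was 3 counts. At these totals that floor was 0.0592 CPM over the PD03 group. Chi-square values per degree of freedom of 1.81 to 3.88 in the 9 replicate pairs exceeded sampling noise, so no library was treated as a duplicate. Alternatives covered the scaling, the low-count filter, DESeq2 1.42.0, limma 3.58.1 (voom, and FPKM with 1 or 0.1 added), glmTreat, the fold threshold, the replicate block and each library left out. Promoter sequences are those of RefSeq, and gene coordinates of the authors' build were not used. Figures were drawn with matplotlib 3.10.9.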

Additional observations from a re-analysis of the deposited data

How the results depend on the processing

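Over 15 log2 fold changes (5 genes in 3 comparisons) and the 19 alternatives that gave values for single genes (the 2 other fold thresholds gave counts only), 278 of 279 values kept their direction and call. The exception was Csf3 for thrombin against control, which was called without control replicate 1 (0.62). A value that stayed uncalled counts as kept, also where it no longer passed the test, as for Csf1 under library totals. Fits without a library of the group outside a comparison are counted too and could change little. A filter at a mean count of 50 removed Csf2 and Il34, and the calls among the 6 genes then fell to 1, 2 and 1 for thrombin against control, for PD03 against thrombin and for PD03 against control. With no fold threshold they were 4, 5 and 4. Over all genes, in the same order, the calls were 1068, 2110 and 1189 as reported, 460, 1051 and 499 with glmTreat, 505, 935 and 519 with a threshold of 1, 3808, 6608 and 5289 without one, and 543, 1254 and 676 on FPKM with 1 added.

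With library totals as the scaling, all genes shifted by a median of -0.12 (log2) for PD03 against control. The share of calls that were higher went from 60.4% to 46.5% for PD03 against thrombin and from 54.6% to 34.1% for PD03 against control. It was 42.8% and 36.2% on FPKM with 1 added, and 46.3% and 34.3% with 0.1 added.

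Replicate numbers showed no sign of pairing, since deviations of same-numbered libraries correlated at -0.05 to 0.05 and those of other numbers at -0.06 to 0.06. Such values cannot tell whether same-numbered samples shared a culture or animal. The replicate block gave 1067, 2103 and 1187 calls and changed no call of the 6 genes. Depth limited Tnfsf11 most. The planned tests of the OPG to RANKL balance between groups were not run, since Tnfsf11 did not pass 3 reads in both groups of any comparison. Leaving out libraries for the Csf2 bound and the OPG to RANKL ratio was chosen after seeing the data.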
